A study of Mus musculus with 18 samples.

Results

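The fibroblast growth factor (FGF) ligands and receptors described here were 10 genes, *Fgf1*, *Fgf2*, *Fgf7*, *Fgf9*, *Fgf10*, *Fgfr1*, *Fgfr2*, *Fgfr3*, *Fgfr4* and *Fgfrl1*, of the 22909 gene symbols on the array. They were chosen by symbol, and each was read from 1 transcript cluster, the set of probes that the array assigns to a gene. The glomerulus, the filtering unit of the kidney, was profiled in the *Cd2ap* mutant mouse, a model of focal segmental glomerulosclerosis, to ask how its podocytes, mesangial cells and endothelial cells differ from those of control mice. CD2AP is an adapter protein of the podocyte slit diaphragm. The 18 arrays formed 6 groups of 3, a CD2AP-/- and a wild type group for each cell type, all from mice at 5 weeks of age. The mutant allele was *Cd2ap* tm1Shaw, present in every cell of the animal. Glomeruli were sieved and dissociated, and cells were sorted for GFP from a transgene of their cell type, driven by *Meis1* for mesangial cells and by *Tie2* for endothelial cells. Each cell type therefore came from its own reporter strain in both genotypes, and cell type and reporter cannot be told apart. The column names mark the mesangial controls as heterozygous (+:-) while the sample labels call them wild type. They are called wild type here. The columns of the podocyte and endothelial controls are marked +/+. If the column names hold, comparisons of wild type mesangial cells with other wild type cells also set unlike control genotypes side by side. The same is true of comparisons of genotype effects with mesangial cells.

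FGFs are secreted proteins that bind receptor tyrosine kinases on the cell surface together with heparan sulfate. The bound receptors signal through adaptors such as FRS2 to the RAS and ERK cascade, which in turn raises the transcription of its own inhibitors, the Sprouty and Spred proteins and the phosphatase DUSP6, and of ETS factors such as ETV5. In kidney development FGF7 and FGF10 from the stroma act on the epithelium, and FGF9 and FGF20 keep nephron progenitors alive.

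Sequence upstream of the transcription start was taken from RefSeq (GRCm38.p6) for 8 of the 10 genes. *Fgfr2* and *Fgfr3* are shown because both differed between wild type mesangial and endothelial cells, in opposite directions. *Fgf1* and *Fgfr1* were not matched. The 250 bases before each start are given 5′ to 3′ on the strand of the gene, with the GC box GGGCGG, or its reverse complement CCGCCC, in capitals. The *Fgfr2* window lies on the minus strand at chr7:130266809-130267058, and the windows before 2 annotated starts of *Fgfr3* lie on the plus strand at chr5:33721474-33721723 and chr5:33722056-33722305.

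Fgfr2: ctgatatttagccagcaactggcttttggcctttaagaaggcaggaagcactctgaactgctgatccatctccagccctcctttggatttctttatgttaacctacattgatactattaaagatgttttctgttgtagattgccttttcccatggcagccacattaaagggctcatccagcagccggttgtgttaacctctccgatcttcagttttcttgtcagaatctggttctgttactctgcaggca

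Fgfr3, first start: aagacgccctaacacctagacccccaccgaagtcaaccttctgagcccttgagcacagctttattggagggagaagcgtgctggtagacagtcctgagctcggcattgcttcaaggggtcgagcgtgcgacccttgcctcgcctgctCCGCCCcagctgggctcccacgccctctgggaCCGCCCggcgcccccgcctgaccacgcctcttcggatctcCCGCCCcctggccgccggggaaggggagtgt

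Fgfr3, second start: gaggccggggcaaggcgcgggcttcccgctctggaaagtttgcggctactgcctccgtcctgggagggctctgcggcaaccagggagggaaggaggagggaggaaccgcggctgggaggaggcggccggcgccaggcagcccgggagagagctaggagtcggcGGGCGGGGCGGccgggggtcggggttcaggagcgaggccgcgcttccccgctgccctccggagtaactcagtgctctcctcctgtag

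The *Fgfr2* window had 0 matches to the GC box on either strand and a GC content of 44%. The *Fgfr3* windows had 3 and 2 matches and GC contents of 66.8% and 72.8%. Of 32851 mouse promoter windows of the same length, 32.7% held the GC box, and the median GC content was 52.4%. The window of *Fgfrl1* held 4 GC boxes, that of *Fgfr4* held 2, those of *Fgf2* and *Fgf10* held 1 each, and those of *Fgf7* and *Fgf9* held 0. The TATA box TATAAA was in none of the 9 windows, against 12.4% of all windows, and the ETS site CCGGAAGT was in that of *Fgfrl1*, against 2.88% of all windows. A match of letters is a description of the window and not a binding site.

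Signals are intensities on a linear scale, and levels are compared only between arrays of the same gene. The study's own minimum of 100 was kept as a condition for testing a gene. A signal below 100 is not a measure of absence. Median signals of the arrays ran from 62.8 to 71.6, and 9697 to 10097 clusters reached 100. The labelled cell types were read against their markers. All 7 podocyte markers reached 100 in each podocyte array, all 6 mesangial markers in each mesangial array and all 8 endothelial markers in each endothelial array. Markers of the neighbouring cell types were also present. All 6 mesangial and all 8 endothelial markers reached 100 in each wild type podocyte array, at sums of 2200 to 2887 and 4423 to 5943, and 5 to 8 endothelial markers did so in the mesangial arrays of either genotype. In endothelial arrays 1 mesangial marker and 2 to 4 podocyte markers reached 100. Their part in the cell type differences below was not tested. Wild type mesangial array C stood apart. Its summed endothelial markers were 8228 against 2966 and 3358 in the other wild type mesangial arrays, and its summed podocyte markers were 3735 against 868 and 1019. The members' values without it are given where they change a call or move a value by much. The *Cd2ap* signal, by limma's moderated test, differed by -0.31 on the log2 scale in mutant mesangial cells (adjusted p = 0.151), by -0.23 in podocytes (adjusted p = 0.504) and by 0.18 in endothelial cells (adjusted p = 0.336). None of these passed the adjusted threshold and the endothelial value was not lower in the mutant, so directions rest on the labels. Whether the probes lie in the mutated part of the gene is not given in the sources used here.

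Of the 5 ligands, *Fgf1* was the only one to reach 100. FGF1, acidic FGF, binds all the signalling FGF receptors. Its signals were 253, 303 and 265 in wild type and 308, 203 and 213 in mutant mesangial cells. In podocytes they were 178, 236 and 141 in the wild type and 211, 98.5 and 104 in the mutant. Endothelial cells gave 128, 341 and 584 in the wild type and 122, 501 and 320 in the mutant. The endothelial arrays thus spread more than 4-fold within each genotype, and 1 array of each genotype lay below all mesangial arrays. Every group overlapped the next in the order of means, from 351 ± 228 in wild type endothelial cells to 138 ± 63.4 in mutant podocytes (SD, n = 3).

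The other 4 ligands stayed below 100 on all 18 arrays. *Fgf7* (keratinocyte growth factor), *Fgf9* and *Fgf10* had group means between 38.4 and 54.1. Basic FGF, *Fgf2*, was highest in mesangial cells, at 69.4, 62.0 and 63.4 in the mutant and 60.2, 51.9 and 38.5 in the wild type, and lay between 29.9 and 44.0 in the podocyte and endothelial arrays. The lowest wild type mesangial value came from array C. Its mutant and wild type mesangial arrays did not overlap, at 64.9 ± 3.92 and 50.2 ± 11.0 (SD, n = 3), which held for 28.6% of the clusters that passed the minimum. The gene was below the minimum and was not called. In a fit without the minimum the difference was 0.39 on the log2 scale (95% confidence interval -0.01 to 0.80), and 0.21 (95% confidence interval -0.02 to 0.45) without wild type mesangial array C.

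**Figure D1:**
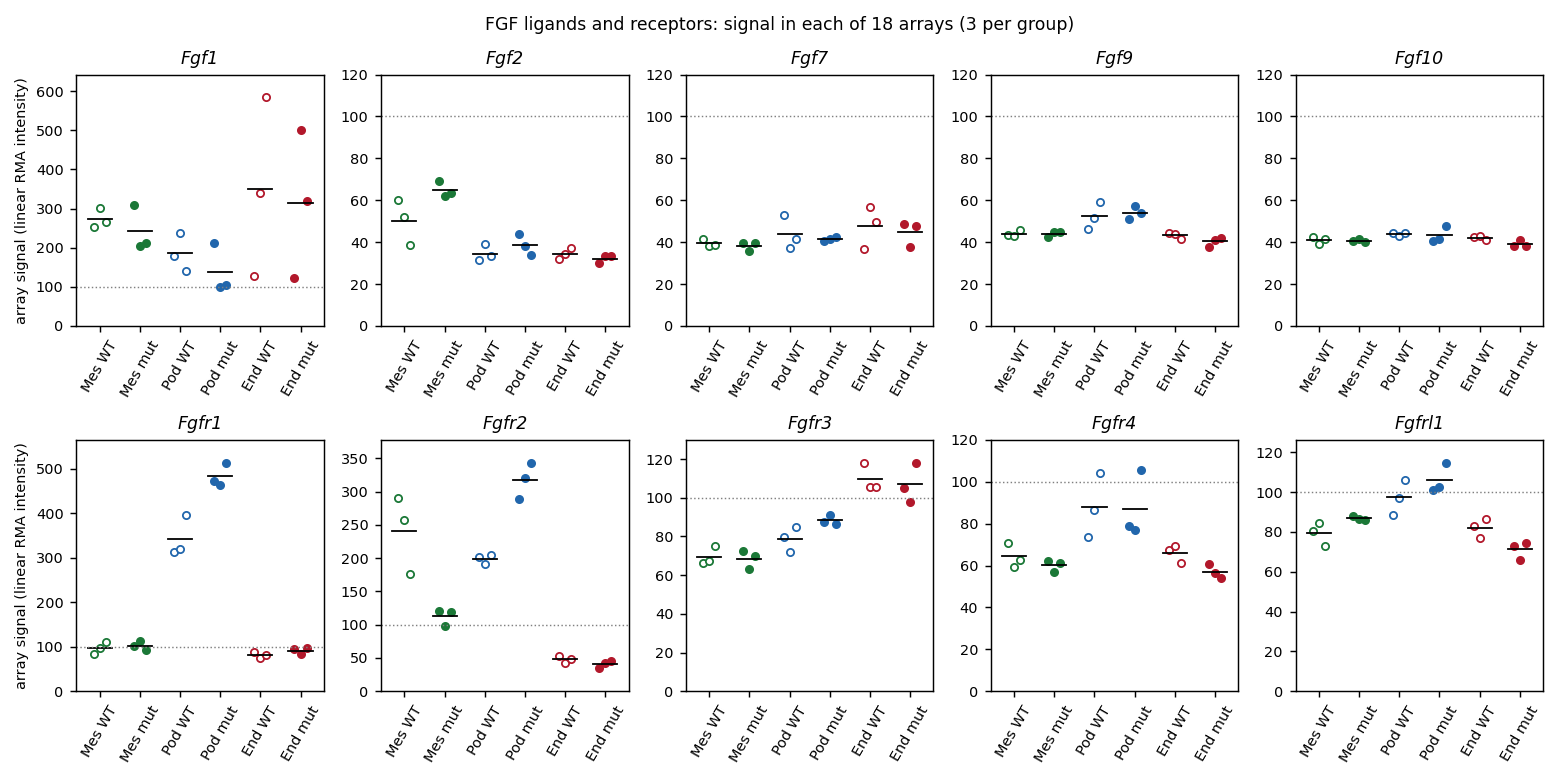
Signal of each FGF ligand and receptor in each of the 18 arrays, with 1 panel per gene, cell type and genotype on the x axis (Mes, mesangial; Pod, podocyte; End, endothelial; open, wild type; filled, mutant), linear array signal on the y axis, group means as bars and the minimum of 100 as a dotted line. *Fgfr1* is at 313 or more in each podocyte array and *Fgfr2* is at most 53.3 in the endothelial arrays, where *Fgf1* runs from 122 to 584.

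*Fgfr1* marked the podocyte. FGFR1 is a receptor tyrosine kinase that binds many FGFs. Its signals were 313, 319 and 396 in wild type podocytes and 471, 463 and 513 in mutant podocytes. Mesangial arrays lay between 82.6 and 112, and endothelial arrays between 73.8 and 96.2. No podocyte array overlapped an array of another cell type. Of all clusters tested, 46% did not overlap between wild type podocytes and mesangial cells, and 50.8% between wild type podocytes and endothelial cells. The mutant podocytes stood above the wild type podocytes without overlap, where 21.3% of all clusters were free of overlap in either direction. Neighbouring mesangial and endothelial groups in the order of means overlapped.

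*Fgfr2* was high in podocytes and mesangial cells and low in endothelial cells. FGFR2 has an epithelial splice form, the receptor of FGF7 and FGF10, and a mesenchymal form, which the cluster does not separate. Its signals were 291, 257 and 176 in wild type mesangial cells and 121, 97.3 and 119 in mutant mesangial cells. In podocytes they were 202, 191 and 204 in the wild type and 289, 321 and 344 in the mutant. Endothelial arrays lay between 35.1 and 53.3. The order of means ran from mutant podocytes (318 ± 27.4) through wild type mesangial cells (241 ± 58.8) and wild type podocytes (199 ± 7.08), each overlapping the next, to mutant mesangial cells (113 ± 13.2), wild type endothelial cells (48.3 ± 5.22) and mutant endothelial cells (41.0 ± 5.23; all SD, n = 3). Mutant mesangial cells overlapped neither neighbour.

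*Fgfr3* was the receptor with its highest signal in endothelial cells. FGFR3 is best known as a brake on growth of the long bones. Signals were 118, 106 and 105 in wild type and 105, 97.9 and 118 in mutant endothelial cells. Podocytes lay between 72.2 and 90.9 and mesangial cells reached at most 75.2, so that endothelial arrays overlapped no other cell type. Among wild type arrays, 50.8% of all clusters tested were free of overlap between endothelial cells and podocytes, and 47% between endothelial and mesangial cells.

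*Fgfr4* and *Fgfrl1* each had their highest signals in podocytes. FGFR4 is best known in the liver as the receptor of the FGF that limits bile acid synthesis. Its podocyte signals were 73.4, 86.7 and 104 in the wild type and 78.7, 76.9 and 106 in the mutant, and all other arrays lay below the podocyte arrays, between 54.2 and 70.9. FGFRL1 lacks the tyrosine kinase domain of the other receptors, and mice without it form few nephrons. *Fgfrl1* signals ran from 88.7 to 115 in podocytes and from 66.1 to 88.1 in the other cells. In podocytes these receptors reached 100 in some arrays, and in the other cell types in 0 arrays. Wild type podocytes were free of overlap with wild type mesangial cells in 46% of all clusters tested, and with wild type endothelial cells in 50.8%.

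The wild type cell types were compared first, with a call at an adjusted p under 0.05 and a fold change over 1.5 by limma. *Fgf1* and the 5 receptors passed the minimum and were tested. Some did so only through the cell type where they were high, *Fgfr3* through endothelial arrays, *Fgfrl1* through podocyte arrays and *Fgfr4* through 1 podocyte array of each genotype, array C. The sizes and calls of their differences from the other cell types rest on signals below 100 and are not well measured. Between podocytes and mesangial cells 1 of the 6 was called, against 15.1% of all 12537 clusters tested. *Fgfr1* was higher in podocytes by 1.83 (SE 0.14, 95% confidence interval 1.52 to 2.14, adjusted p = 1.86e-05). Its arrays did not overlap between these cell types, as was the case for 46% of all clusters. Its wild type mesangial signals were 82.6, 96.3 and 110, mostly below the minimum, so that the size of the difference is not well measured. *Fgfr2* differed by -0.25 (SE 0.17, 95% confidence interval -0.63 to 0.13, adjusted p = 0.308), and its groups overlapped through wild type mesangial array C, at 176. Without that array the difference was -0.46 (adjusted p = 0.0194), still under 1.5-fold and not called, and over the fits that left out 1 array it ran from -0.46 to -0.10. *Fgfr4* passed the adjusted threshold at 0.44 (adjusted p = 0.0336) but lay under 1.5-fold. *Fgf1* differed by -0.59 (SE 0.45, adjusted p = 0.351). Its arrays did not overlap between these cell types, at 141 to 236 in podocytes and 253 to 303 in mesangial cells, as for 46% of all clusters. The SE pools all wild type arrays, the widely spread endothelial ones (351 ± 228, SD, n = 3) included.

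Between podocytes and endothelial cells 2 of the 6 were called, against 21.5% of all clusters. *Fgfr1* was higher in podocytes by 2.06 (SE 0.14, adjusted p = 4.73e-06) and *Fgfr2* by 2.05 (SE 0.17, adjusted p = 1.76e-05). All endothelial signals of both genes were below 100, so that they passed the minimum only through other cell types and the size of the difference from endothelial cells is not well measured, here and in the comparisons of these genes that follow. Neither overlapped between the cell types, as was the case for 50.8% of all clusters. *Fgfr3* was lower in podocytes by limma's test alone, at -0.48 (SE 0.10, adjusted p = 0.00368), and under 1.5-fold. *Fgf1* differed by -0.70 (SE 0.45, adjusted p = 0.252), and rested on single arrays. Without wild type endothelial array A, the low one, it was -1.30 (adjusted p = 0.00538) and called, and without array C, the high one, it was -0.21 (adjusted p = 0.714).

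Between mesangial and endothelial cells 2 of the 6 were called, against 17.5% of all clusters. *Fgfr2* was higher in mesangial cells by 2.29 (SE 0.17, adjusted p = 8.54e-06), and *Fgfr3* was lower by 0.66 (log2 difference -0.66, SE 0.10, adjusted p = 7.36e-04), with all mesangial signals below 100. Both were free of overlap, as were 47% of all clusters. With an offset of 50 added to all signals, the *Fgfr3* difference was -0.42 and under 1.5-fold.

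**Figure D2:**
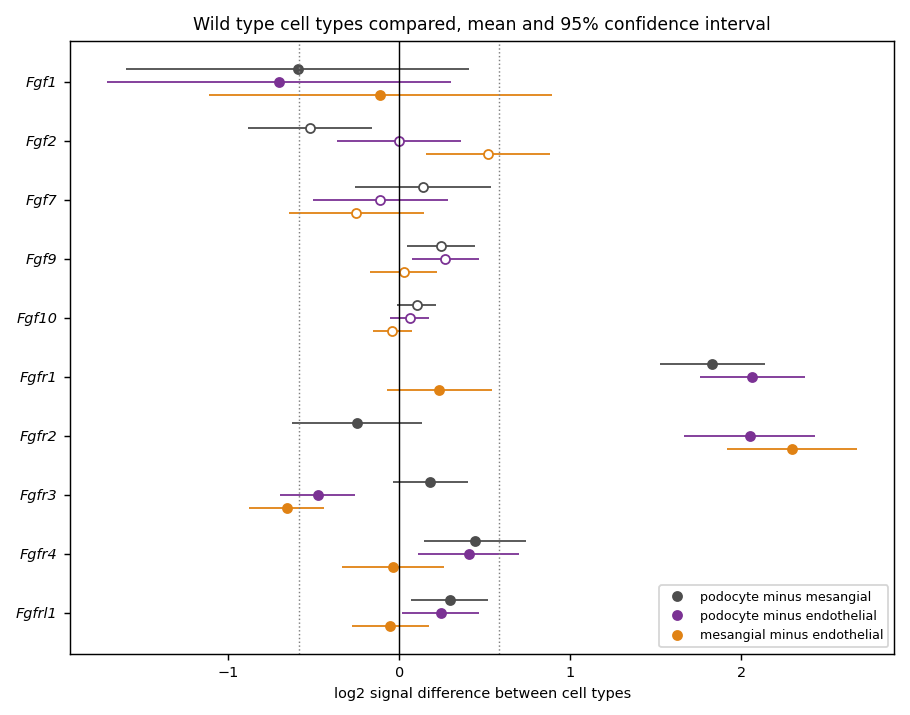
Difference in log2 signal between wild type cell types (x axis) for each gene (y axis), with 95% confidence intervals from limma. Filled points passed the minimum of 100, open points did not, and dotted lines mark a 1.5-fold change. *Fgfr1* lies at 1.83 and 2.06 for podocytes against mesangial and endothelial cells, and *Fgfr2* at 2.05 and 2.29 for podocytes and mesangial cells against endothelial cells.

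In the mutant arrays, which share no array with the wild type comparison, *Fgfr1* was again higher in podocytes, by 2.24 against mesangial cells (adjusted p = 1.39e-06) and by 2.41 against endothelial cells (adjusted p = 4.41e-07). *Fgfr2* now differed between podocytes and mesangial cells, being higher in podocytes on the log2 scale (SE 0.14, 95% confidence interval 1.19 to 1.81, adjusted p = 5.70e-05), and by 2.83-fold. Of the 6 tested members 2 were called in that comparison, against 18.5% of all 13063 clusters tested. *Fgfr2* was also higher in mutant podocytes than in mutant endothelial cells by 2.96 (adjusted p = 3.73e-07), and *Fgfr4*, which reached 100 only in mutant podocyte array C, by 0.59 (adjusted p = 0.00602). With *Fgfr1* 3 of 6 were called, against 30% of all clusters, and endothelial signals were below 100 for each of the 3. Mutant mesangial cells exceeded mutant endothelial cells by 1.46 in *Fgfr2* (adjusted p = 3.82e-05) and were lower in *Fgfr3* (-0.64, adjusted p = 0.00195), 2 of 6 called against 17.3% of all clusters. Here too 1 side of each difference lay below 100, the endothelial arrays for *Fgfr2* and the mesangial arrays for *Fgfr3*.

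Genotypes were then compared within each cell type, by the screen of the study, an unadjusted p under 0.05 by limma's moderated test and a fold change over 1.5. In mesangial cells 3 members passed the minimum and 1 was called, *Fgfr2*, which was lower in the mutant. The screen called 5.19% of all 11457 clusters, 3.12% as lower, and 2.2% passed the adjusted threshold as well. The arrays of *Fgfr2* did not overlap, which held for 28.6% of all clusters. Mutant cells had 113 ± 13.2 and wild type cells 241 ± 58.8 (SD, n = 3), a log2 difference of -1.08 (SE 0.20, 95% confidence interval -1.54 to -0.61, unadjusted p = 0.00104, adjusted p = 0.0435 by limma), or 2.11-fold. The adjusted p ranged from 0.00923 to 0.148 when single arrays were left out, and the direction and the call by the screen held in each case. Without wild type mesangial array C, the lowest of its group, the difference was -1.29. *Fgf1* differed by -0.20 (adjusted p = 0.542) and *Fgfr1* by 0.09 (adjusted p = 0.740).

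Markers moved with genotype in the mesangial arrays. Summed mesangial markers were 4486 to 4997 in the mutant and 6557 to 7398 in the wild type, without overlap. Of the 6 markers 5 had a lower mean in the mutant, such as *Itga8*, at 1980 against 2974, and *Meis1*, whose reporter was sorted, had a higher one, at 274 against 208. Summed smooth muscle and juxtaglomerular markers had a higher range in the mutant, 1592 to 2892 against 1326 to 1609, with a slight overlap. Of these 5 markers *Acta2* and *Tagln* carried the higher sums, with means of 1354 against 615 and 323 against 158, while *Cnn1* (103 against 92.7), *Ren1* (296 against 289) and *Myh11* (287 against 299) differed little in their means. Summed podocyte markers were 776 to 851 in the mutant and 868 to 3735 in the wild type, without overlap, with the highest sum in wild type array C. Summed erythroid markers were 176 to 361 in the mutant and 271 to 7227 in the wild type. Summed endothelial markers were 2952 to 3181 and 2966 to 8228, and both of these lists overlapped. The part of these markers in the *Fgfr2* result was not tested. In such bulk samples fewer cells of a type and less RNA per cell cannot be told apart.

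In podocytes the direction was the opposite. Of the 5 members tested 1 was called, *Fgfr2*, which was higher in the mutant, at 318 ± 27.4 against 199 ± 7.08 (SD, n = 3). The screen called 5.61% of all 12113 clusters, 1.26% as higher. The log2 difference was 0.67 (SE 0.12, 95% confidence interval 0.39 to 0.96, unadjusted p = 7.15e-04 by limma), or 1.59-fold. It did not pass the adjusted threshold (adjusted p = 0.135 by limma), as 0.0578% of all clusters did with a fold change over 1.5. With an offset of 50 added to all signals the difference was 0.56, under 1.5-fold and not called. When single arrays were left out it ran from 0.61 to 0.74, with adjusted p from 0.0385 to 0.494 by limma, and the call by the screen held. *Fgfr1* had 482 ± 27.0 in the mutant against 343 ± 46.1 in the wild type (SD, n = 3). Its log2 difference was 0.50 (SE 0.14, 95% confidence interval 0.18 to 0.82, unadjusted p = 0.00749, adjusted p = 0.206 by limma), or 1.41-fold, under the fold threshold. Without wild type podocyte array C, the highest of its group, it was 0.61 and was called. Neither receptor overlapped between genotypes, which held for 21.3% of all clusters. *Fgf1* differed by -0.49 (adjusted p = 0.520), and without mutant podocyte array A by -0.84 (adjusted p = 0.0978), which the screen called. *Fgfr4* differed by -0.02 (95% confidence interval -0.45 to 0.41) and *Fgfrl1* by 0.13 (95% confidence interval -0.17 to 0.43).

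Signals of neighbouring cells also moved with genotype in the podocyte arrays. Summed endothelial markers were 4423 to 5943 in the wild type and 722 to 2712 in the mutant, with 8 of 8 markers at 100 or more in the wild type arrays and 3 to 8 in the mutant arrays. Summed mesangial markers were 2200 to 2887 in the wild type and 807 to 1988 in the mutant. Summed fibroblast markers were 410 to 528 in the wild type and 298 to 396 in the mutant, without overlap. Among them the mean of *Pdgfra* was 252 in the wild type and 109 in the mutant, while that of *Col1a1* was higher in the mutant, at 158 against 130. Summed smooth muscle and juxtaglomerular markers were 766 to 783 in the wild type and 1022 to 2970 in the mutant, higher without overlap. Of these markers *Ren1* (134 to 228 in the wild type, 467 to 789 in the mutant) did not overlap, nor did *Cnn1* (49.2 to 62.6 and 65.0 to 90.7), below 100. In the same order *Acta2* (209 to 266 and 247 to 1050), *Tagln* (115 to 122 and 96.9 to 900) and *Myh11* (118 to 192 and 146 to 313) overlapped. Summed podocyte markers overlapped, at 13027 to 14707 and 11996 to 13929. Their part in the podocyte results was not tested.

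**Figure D3:**
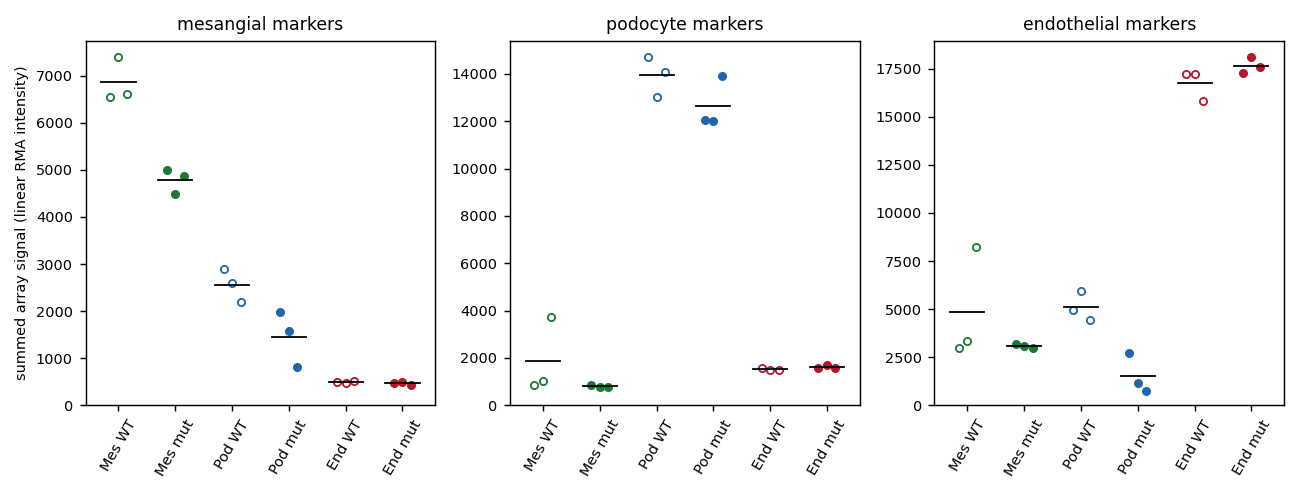
Summed linear signal of the mesangial, podocyte and endothelial marker genes (y axis) in each array by group (x axis; Mes, mesangial; Pod, podocyte; End, endothelial; open, wild type; filled, mutant; bars, group means). Mesangial markers are lower in the mutant mesangial arrays (4486 to 4997 against 6557 to 7398), endothelial markers are lower in the mutant podocyte arrays (722 to 2712 against 4423 to 5943), and wild type mesangial array C has the highest podocyte and endothelial sums of its group.

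In endothelial cells *Fgf1* and *Fgfr3* were tested and 0 of 2 were called, by limma's screen as well as by an unadjusted p under 0.05 alone. The screen called 3.82% of all 11330 clusters. The log2 difference was -0.13 for *Fgf1* (SE 0.63, 95% confidence interval -1.59 to 1.33) and -0.04 for *Fgfr3* (SE 0.10, 95% confidence interval -0.28 to 0.20). The interval of *Fgf1* leaves room for a change of more than 2-fold in either direction. Leaving out single arrays moved it from -0.73 to 0.44. The receptors below the minimum were not tested and had log2 differences of -0.24 for *Fgfr2*, -0.21 for *Fgfr4*, -0.21 for *Fgfrl1* and 0.16 for *Fgfr1*.

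**Figure D4:**
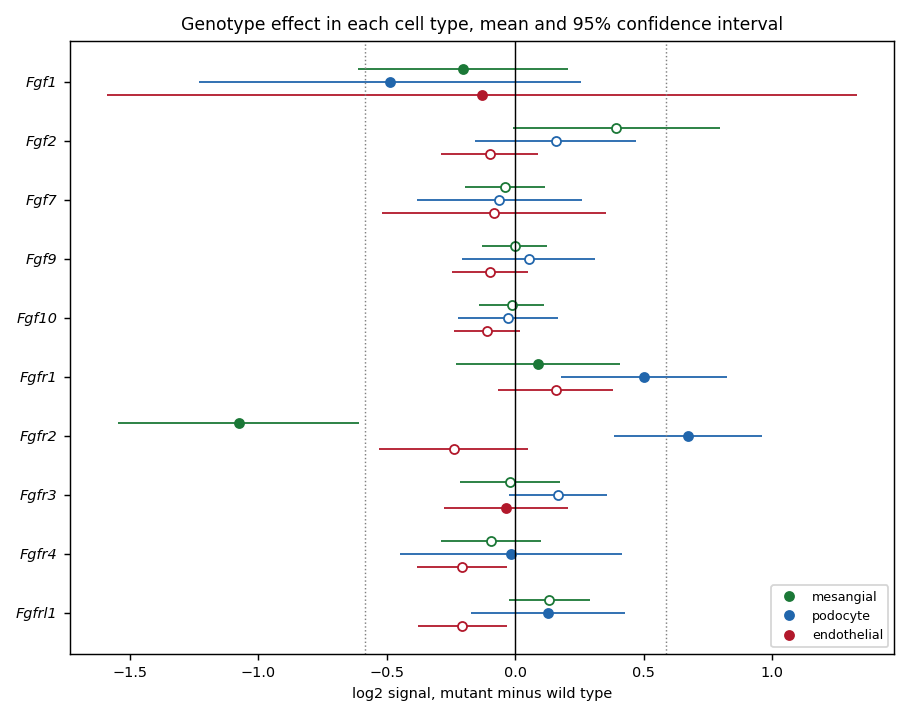
Difference in log2 signal between mutant and wild type cells (x axis) for each gene (y axis) in mesangial cells, podocytes and endothelial cells, with 95% confidence intervals from limma. Filled points passed the minimum of 100, open points did not, and dotted lines mark a 1.5-fold change. *Fgfr2* lies at -1.08 in mesangial cells and 0.67 in podocytes, and the interval of endothelial *Fgf1* is the widest, from -1.59 to 1.33.

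Whether the genotype effect differed between cell types was tested as an interaction over all 18 arrays, with a call at an adjusted p under 0.05 and a fold change over 1.5. For *Fgfr2* the effect in podocytes exceeded that in mesangial cells by 1.75 on the log2 scale (SE 0.23, 95% confidence interval 1.27 to 2.23, adjusted p = 9.33e-04 by limma). It was the 1 member called of 6 tested, against 0.717% of all 13523 clusters. The value stayed between 1.60 and 1.96, with adjusted p from 1.60e-04 to 0.00411, when single arrays were left out. By the column names the mesangial controls were heterozygous and the podocyte controls +/+. Cell type and control genotype cannot be told apart in this difference. Podocytes exceeded endothelial cells by 0.91 (SE 0.23, adjusted p = 0.0493), 1 of 6 called against 2.01% of all clusters, but this call was lost in 15 of the 18 fits that left out 1 array. For mesangial against endothelial cells the *Fgfr2* difference was -0.84 (SE 0.23, adjusted p = 0.0882), so that 0 of 6 were called, against 1.06% of all clusters. Without wild type mesangial array C it was -1.05 (adjusted p = 0.0128) and was called. The podocyte effect of *Fgfr1* was not shown to differ from that in mesangial cells, at 0.41 (95% confidence interval 0.03 to 0.79, adjusted p = 0.370), or in endothelial cells, at 0.34 (adjusted p = 0.257).

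The other genes of the pathway were read from fixed lists. Of 13 further FGF ligands 10 stayed below 100 on all 18 arrays, and *Fgf8*, *Fgf17* and *Fgf18* reached at most 120, 105 and 103. All 4 FGF homologous factors, which stay inside the cell and do not act through the receptors, were below 100, as were *Kl* and *Klb*, the co-receptors of the hormone-like FGFs.

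In wild type cells most feedback inhibitors were lower in podocytes, where *Fgfr1* was high, than in mesangial cells. Of 7 tested, 5 were called lower and 0 higher, against 9.24% of all clusters called lower. Their median log2 difference was -1.08, against -0.03 over all clusters tested. They were *Spry4* (-1.12, SE 0.12, adjusted p = 1.43e-04), *Spry2* (-1.10, SE 0.27), *Spred1* (-1.09, SE 0.09), *Il17rd* (-1.08, SE 0.12), which encodes the receptor-binding inhibitor SEF, and *Dusp6* (-0.85, SE 0.15), which encodes a phosphatase of ERK. *Spry1* and *Spred2* were not called. Wild type podocyte signals of *Spry4* were 77.6, 109 and 84.3, mostly below 100. The size of its difference is therefore not well measured, here and against endothelial cells below. The count was 5 when any one array was left out, wild type mesangial array C included, and 4 in the mutant arrays, against 18.5% of all clusters called there in either direction. Both ETS factors tested were lower as well, *Etv5* by 1.26 (log2 difference -1.26, 66.9 ± 10.8 against 161 ± 37.9) and *Etv1* by 1.15 (log2 difference -1.15, 112 ± 20.3 against 246 ± 34.9; SD, n = 3). In the mutant arrays 1 of these 2 was called, *Etv1*, against the same 18.5%. All wild type podocyte signals of *Etv5* were below 100, so that it passed the minimum through the other cell types and the size of its difference is not well measured. Against endothelial cells 1 of the 2 was called in each comparison, where 21.5% of all clusters were called for podocytes and 17.5% for mesangial cells. These were *Etv1*, lower in podocytes (-0.82), and *Etv5*, higher in mesangial cells (0.67). The latter call was lost without the signal minimum, with an offset of 50, in the mutant arrays, and without wild type endothelial array B or C, mesangial array A or B, or podocyte array B or C.

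Against endothelial cells the 7 inhibitors were mixed in podocytes, with *Spry4* lower (-0.97) and *Il17rd* higher (0.66), 2 of 7 called or 28.6%, against 21.5% of all clusters. The call of *Il17rd* was lost with an offset of 50, and no inhibitor was called higher in the mutant arrays. The count called lower was 2 in the mutant arrays, with array medians subtracted, and without wild type endothelial array B, wild type endothelial array C or wild type podocyte array B. Mesangial cells exceeded endothelial cells in 3 of 7, *Il17rd* (1.74), *Spry2* (1.58) and *Spred1* (1.19), against 9.58% of all clusters called higher. *Frs2*, the adaptor that docks on the receptors, was higher than in endothelial cells by 1.10 in podocytes (323 ± 47.7 against 150 ± 4.23) and by 1.41 in mesangial cells (398 ± 18.8; SD, n = 3). Of 16 signal transducers tested, 3 were called between podocytes and endothelial cells, or 18.8% against 21.5% of all clusters, with *Plcg1* (-1.23) and *Mapk3* (-0.74) lower in podocytes beside *Frs2*. Between mesangial and endothelial cells 3 were called, or 18.8% against 17.5%, with *Nras* (-1.08) and *Plcg1* (-0.85) lower in mesangial cells. Between podocytes and mesangial cells 0 of 16 were called by limma, against 15.1% of all clusters. The count called higher in podocytes was 1 without wild type mesangial array C or with quantile normalization applied again. In the mutant arrays 0 were called higher and 1 lower, against 18.5% of all clusters called there in either direction.

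Among co-receptors and binding proteins, 3 of 4 were higher in podocytes than in mesangial cells, against 15.1% of all clusters called in either direction. They were *Flrt2*, a transmembrane protein of a family that binds FGF receptors (3.30, SE 0.52), *Fgfbp1*, a secreted carrier of FGFs (2.19, SE 0.33), and *Flrt1* (0.96, SE 0.16). *Flrt2* was 53.8, 47.1 and 254 in wild type mesangial cells, where array C was high, and 818, 787 and 952 in wild type podocytes. *Fgfbp1* was 39.9, 39.8 and 95.4 in wild type mesangial cells, with array C high again. Without array C the differences were 4.08 for *Flrt2*, 2.61 for *Fgfbp1* and 0.94 for *Flrt1*, and the 3 calls held. Mesangial signals of *Fgfbp1* and *Flrt1* were below 100 in the wild type, as were those of *Flrt2* outside array C, so that these genes passed the minimum through other arrays and the sizes of their differences are not well measured. Against endothelial cells 3 of the 4 were called in podocytes, *Fgfbp1* (2.51) and *Flrt1* (0.92) higher and *Flrt3* lower (-0.76), against 21.5% of all clusters. Wild type endothelial signals were 43.3, 46.0 and 39.0 for *Fgfbp1*, which passed the minimum only through podocytes, and 86.6, 103 and 97.9 for *Flrt1*. The sizes of both differences are therefore not well measured. *Flrt2*, at 442, 354 and 385 in wild type endothelial cells, was not called. The count called higher was 3 without wild type mesangial array C. Between mesangial and endothelial cells 2 were called, *Flrt2* (-2.18) and *Flrt3* (-1.15), both lower in mesangial cells, against 17.5% of all clusters. The mesangial *Flrt2* mean includes array C, so that the size of its difference depends on that array. The count was 2 when any 1 array was left out. *Flrt3* was 76.4, 119 and 109 in wild type endothelial cells and below 100 in all wild type podocyte and mesangial arrays. Its call in podocytes was lost with an offset of 50. Its calls in podocytes and in mesangial cells were both lost when a group had to reach 100 in all its arrays.

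**Figure D5:**
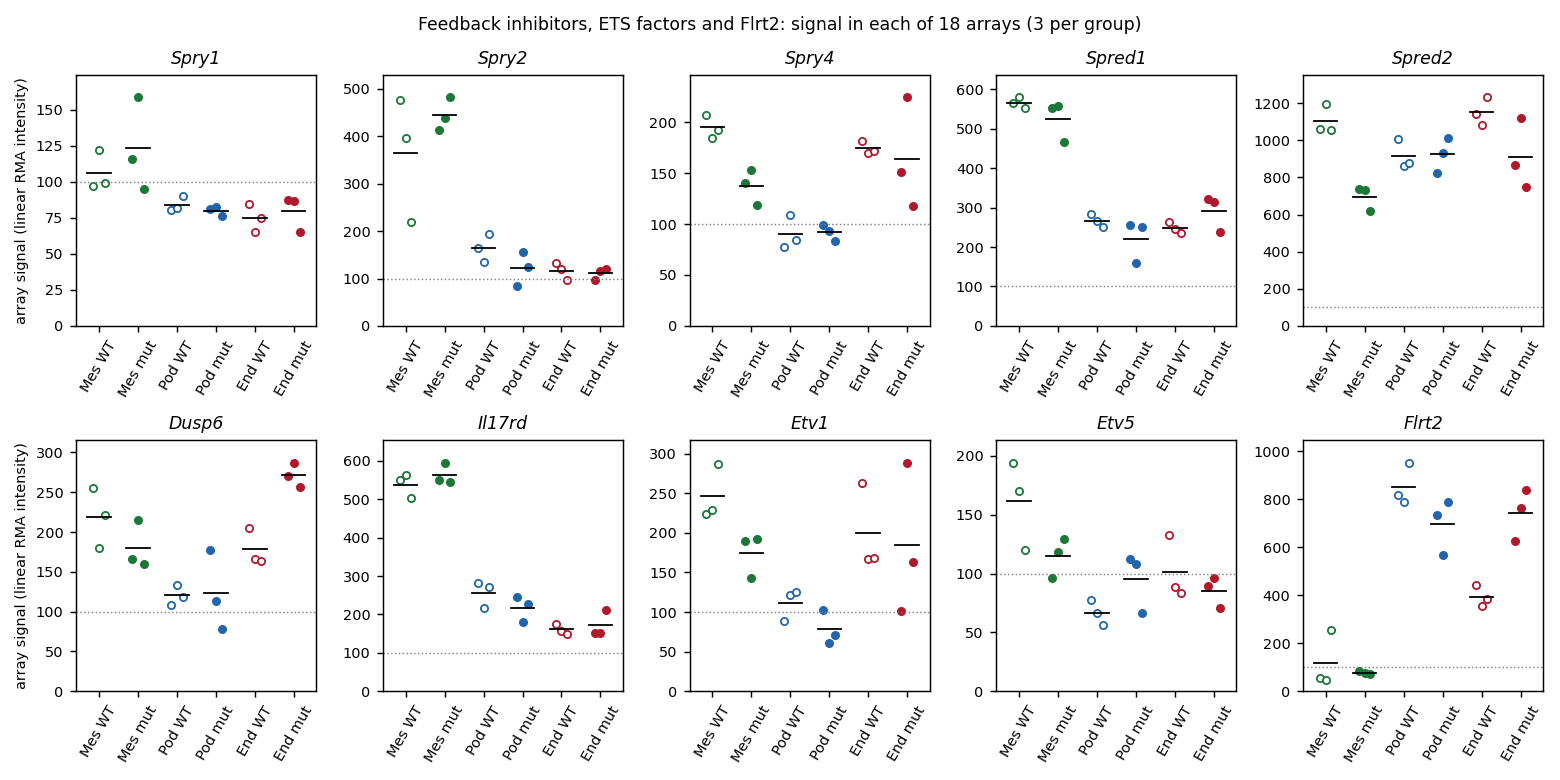
Signal of 7 feedback inhibitors, 2 ETS factors and *Flrt2* in each of the 18 arrays, with 1 panel per gene, cell type and genotype on the x axis (Mes, mesangial; Pod, podocyte; End, endothelial; open, wild type; filled, mutant), linear array signal on the y axis, group means as bars and the minimum of 100 as a dotted line. *Spry2*, *Spry4*, *Spred1*, *Il17rd*, *Dusp6*, *Etv1* and *Etv5* have lower means in wild type podocytes than in wild type mesangial cells.

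The lists were also compared between genotypes. In mesangial cells, where *Fgfr2* was lower, 1 of 7 feedback inhibitors was called, against 5.19% of all clusters. It was *Spred2*, at 737, 731 and 618 in the mutant and 1061, 1198 and 1057 in the wild type (log2 difference -0.67, SE 0.11, adjusted p = 0.0303 by limma). The 2 ETS factors had a median difference of -0.49 in mesangial cells, against -0.02 over all clusters tested, with *Etv1* at -0.50 (unadjusted p = 0.0152, adjusted p = 0.140 by limma) and *Etv5* at -0.48 (unadjusted p = 0.0489, adjusted p = 0.228 by limma). Neither passed 1.5-fold, and 1 was called lower without wild type mesangial array C. In endothelial cells, where the screen called 3.82% of all clusters, 1 of 3 co-receptors and 1 of 6 feedback inhibitors were called. *Flrt2* was higher in the mutant, at 625, 765 and 839 against 442, 354 and 385 (0.91, SE 0.14, adjusted p = 0.0212). *Dusp6* was 271, 287 and 257 in mutant and 205, 166 and 164 in wild type endothelial cells (0.61, SE 0.11, adjusted p = 0.0507), called by the screen only, and it was not called with the signals quantile normalized again, with 50 added, or without mutant array B, wild type array B or wild type array C. In podocytes, where *Fgfr2* was higher, 0 of 6 feedback inhibitors, 0 of 2 ETS factors and 0 of 16 transducers were called by limma's screen, against 5.61% of all clusters. Their medians were -0.14, -0.02 and -0.16 on the log2 scale, against -0.04 over all clusters tested. Leaving out 1 podocyte array gave at most 1 call in each of these lists, and leaving out mutant mesangial array B gave 2 feedback inhibitors called lower in mesangial cells. In the interaction fits over all 18 arrays 0 of the listed co-receptors, transducers, inhibitors and ETS factors were called by limma. Between podocytes and endothelial cells 1 transducer was called lower with array medians subtracted, 2 transducers and 1 feedback inhibitor without mutant podocyte array A, and 1 co-receptor without wild type mesangial array C.

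Genes with the pattern most like a member were found by Pearson's r of log2 signal over the 18 arrays, which belong to 6 groups, among 11132 clusters. Likeness was closest for *Fgfr1*, with *Epn3*, *Zfp385b* and *Slc41a2*, each at an r of 0.99. *Fgfr2* was followed by *Gsta4*, *Cited2* and *Arhgef17*, each at 0.95. Of these *Gsta4*, a glutathione transferase, had means of 552 in mutant and 1019 in wild type mesangial cells and of 1621 and 1396 in podocytes. *Fgfr3* was followed by *Abca3* (0.95), *Mfng* (0.94) and *Tead4* (0.94), and *Fgfrl1* by *Col11a2* (0.95) and *Krtap16-4* (0.94), after a microRNA gene that is not described. For *Fgf1* the values were lower, at 0.72 for *Zfp62*, *Dmtf1* and *Prmt3*.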

How the data were processed

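RNA of the sorted cells was amplified in a single round and hybridised to Affymetrix gene-level mouse arrays, 18 in all and 3 per group. The intensity values were made by the authors with RMA (background correction, quantile normalization and a summary over probes of a gene), per the labels, and deposited on a linear scale. The series record names Exon arrays and other software, and the file header and sample labels were followed. A further 18 columns that the file names normalized were not used.

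Columns name the group and not the sample, so the letters A, B and C for arrays follow column order and carry no pairing. The design text states biological triplicates. Signals were log2 transformed. A cluster was tested if any array of the fit gave 100 or more, with limma 3.58.1 in R 4.3.3 (lmFit, eBayes), with Benjamini-Hochberg adjustment over all of them. Genotypes were compared within a cell type by the screen of the methods (unadjusted p below 0.05, more than 1.5-fold), and cell types and interactions by adjusted p under 0.05 and the same fold change. The steps were tested on simulated data. Alternatives changed the signal minimum, moderation, normalization, an offset of 50, the arrays in the fit and the threshold, or left out each array. The values of *Fgf2* and the co-receptors without wild type mesangial array C were added after seeing the data. A gene with several clusters was to be read from the brightest, and all 10 members had 1. Named genes were all members, up to 6 called genes per pathway list and comparison by fold change, and the 3 clusters most like each member with a group mean of at least 100 (5 members). The 10 genes and the lists were chosen with earlier results of these data known. The number of arrays limits the precision. The sequencing libraries were left out, and 1 podocyte marker and 1 signal transducer are not reported here.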

Additional observations from a re-analysis of the deposited data

Results flagged for a closer look

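The genotype effect on *Fgfr2* differed between cell types by the test of the difference itself. Podocytes exceeded mesangial cells by 1.75 on the log2 scale (adjusted p = 9.33e-04 by limma), with mutant over wild type differences of 0.67 and -1.08. The mesangial controls were heterozygous by the column names and the podocyte controls +/+, so that cell type and control genotype cannot be told apart here. Podocytes exceeded endothelial cells, where *Fgfr2* was below 100 on all arrays, by 0.91 (adjusted p = 0.0493). That call was lost in 15 of the 18 fits that left out 1 array and without a signal minimum (adjusted p = 0.0604), and the endothelial level lies below the minimum, so that the effect there is not well measured.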

How the results depend on the processing

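Of 737 values and counts under other settings, 697 were scored as the same and 40 as changed. With 1 array left out, 833 of 893 were scored as the same and 60 as changed. A difference was the same if its call held, and a count if it stayed within 1.5-fold. A group mean signal, which has no call, was the same if it moved by no more than its SD. The sign changed in 10 and 35 of them, and 1 of these passed the threshold under either setting, *Fgfr2* in the mutant arrays below. The *Fgfr2* difference between genotypes kept its call in mesangial cells under each alternative (-0.93 to -1.29 with 1 array left out). In podocytes it was 0.56 with an offset of 50 and no longer past 1.5-fold, and 0.67 but not called on adjusted p, so that the count of members called was 0 under both. With quantile normalization applied again, *Fgfr1* was 0.63 in podocytes and also called, a count of 2. With 1 array left out, the *Fgfr1* value ran from 0.44 to 0.61, called without wild type podocyte array C, and the count from 1 to 2. *Fgfr2* between podocytes and mesangial cells was 1.501 in mutant arrays in place of wild type (wild type -0.25), and 2 members were called there. With the offset, *Fgfr3* between mesangial and endothelial cells was -0.42 and 1 member was called. The interaction of *Fgfr2* between podocytes and endothelial cells was 0.91 without a signal minimum (adjusted p = 0.0604) and 0.97 with quantile normalization again (adjusted p = 0.0692), with 0 members called. With 1 array left out it ran from 0.80 to 0.99 (adjusted p from 0.0184 to 0.118), and the count from 0 to 1. Between mesangial and endothelial cells 1 member, *Fgfr2*, was called with array medians subtracted (-0.92) and with the offset (-0.71), and 0 to 1 with 1 array left out. The cause was not tested, except that the no-minimum fits test more clusters. No paired analysis was possible because the labels number the arrays across groups and share no replicate number between genotypes. Reading members from another cluster was not run, since each has 1. Members under 100 have no call either way, and with 3 arrays per group a miss of the threshold leaves the intervals given open.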
